A study of Rattus norvegicus with 5 samples.

Results

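The transcription factor subunit Hif1a and 6 genes that respond to low oxygen, Adm, Ndufa4l2, Stc1, Bnip3, Bnip3l and Pdk1, were followed in rat tendon stem/progenitor cells (TSPCs), which reside in tendon and give rise to tendon fibroblasts. They were found by gene symbol, and each of the 7 genes had 1 probe set among the 10141 probe sets of the table. Of these probe sets 7240 carried a gene symbol, which gave 7235 genes. All 7 genes were higher in cells passaged with prim-O-glucosylcimifugin (POG) than in cells passaged with its solvent, with differences between 0.91 and 6.66 on the log2 scale.

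POG is a plant compound of the chromone class, found in the root of Saposhnikovia. The TSPCs came from Achilles tendons of male 3-month-old Sprague-Dawley rats, and colonies were picked before expansion. The POG group received 20 μM POG in every passage from passage 3 to passage 12, and the DMSO group received the same volume of dimethyl sulfoxide (DMSO) over the same passages. The paper's supplement states that POG was no longer added once passage 12 was reached. The time from then to RNA collection is not given, so the cells may have been off POG when collected. Total RNA of passage 12 cells was hybridised to Affymetrix rat transcriptome arrays, with 3 DMSO arrays and 2 POG arrays analysed here. The legend of the array heatmap gives 1 group size, which is larger than the POG group analysed. No genetic change was made in either group, and both groups shared the long passage. The sources used here do not give the oxygen level of the cultures. The labels name the arrays biological replicates without naming separate cultures or animals, so each p-value describes the scatter among 5 arrays and that scatter may be technical.

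HIF-1 is a pair of proteins, an oxygen-regulated alpha subunit and the stable partner ARNT. With oxygen present, prolyl hydroxylases mark the alpha subunit for destruction through the VHL ubiquitin ligase. Without it, the subunit persists, pairs with ARNT and binds the hypoxia response element of its target genes, which serve glucose breakdown, vessel growth, mitochondrial turnover and matrix making. This control acts mainly on HIF-1α protein, which arrays do not measure, and tendon is a tissue of few vessels.

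The promoter windows of the 7 genes were examined for the core of that element because all 7 were higher with POG. RefSeq windows of 300 bases in the GRCr8 assembly, from 250 bases before to 50 bases after an annotated start, were held for 5 of the 7 genes. Stc1 and Bnip3l had no entry and are named only. The letters searched were ACGTG and GCGTG, on both strands. The reverse of the first overlaps it wherever CACGTG stands, and such a place counts as 2 matches. Matches are printed in capitals, and each window reads 5′ to 3′ on the strand of its gene. Hif1a, Bnip3 and Pdk1 are shown for the matches, and Adm and Ndufa4l2 because they had the largest differences of the 7.
Hif1a, chr6:98359648-98359947, plus strand: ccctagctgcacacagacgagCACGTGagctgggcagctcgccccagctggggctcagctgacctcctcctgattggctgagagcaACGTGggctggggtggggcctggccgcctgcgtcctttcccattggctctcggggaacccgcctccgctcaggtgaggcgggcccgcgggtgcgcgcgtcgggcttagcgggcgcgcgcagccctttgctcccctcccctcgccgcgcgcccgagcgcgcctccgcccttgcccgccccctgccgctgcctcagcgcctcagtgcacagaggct
Bnip3, chr1:203154913-203155212, minus strand: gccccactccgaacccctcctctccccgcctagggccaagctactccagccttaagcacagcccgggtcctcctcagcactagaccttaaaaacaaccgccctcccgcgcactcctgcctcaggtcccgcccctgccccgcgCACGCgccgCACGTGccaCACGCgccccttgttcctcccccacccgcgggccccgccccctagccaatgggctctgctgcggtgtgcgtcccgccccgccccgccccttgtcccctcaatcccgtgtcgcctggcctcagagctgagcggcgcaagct
Pdk1, chr3:77113264-77113563, plus strand: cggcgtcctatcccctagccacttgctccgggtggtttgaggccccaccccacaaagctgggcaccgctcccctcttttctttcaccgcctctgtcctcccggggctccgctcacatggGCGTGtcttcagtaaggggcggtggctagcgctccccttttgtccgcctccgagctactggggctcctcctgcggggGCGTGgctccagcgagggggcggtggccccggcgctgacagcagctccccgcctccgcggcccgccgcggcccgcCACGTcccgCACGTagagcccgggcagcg
Adm, chr1:174179950-174180249, plus strand: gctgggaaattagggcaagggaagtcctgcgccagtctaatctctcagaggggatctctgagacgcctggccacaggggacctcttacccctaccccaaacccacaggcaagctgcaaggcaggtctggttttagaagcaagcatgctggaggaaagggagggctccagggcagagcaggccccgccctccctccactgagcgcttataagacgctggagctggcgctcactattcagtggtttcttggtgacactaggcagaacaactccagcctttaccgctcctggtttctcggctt
Ndufa4l2, chr7:65241919-65242218, plus strand: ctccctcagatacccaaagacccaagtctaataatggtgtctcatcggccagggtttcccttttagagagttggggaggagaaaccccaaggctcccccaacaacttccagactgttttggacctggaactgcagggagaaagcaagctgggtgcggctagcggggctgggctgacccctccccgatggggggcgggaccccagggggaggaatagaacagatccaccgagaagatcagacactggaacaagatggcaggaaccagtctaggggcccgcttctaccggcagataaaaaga

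In the Hif1a window ACGTG matched 3 times, at positions -229 and -228 (1 CACGTG) and at -164, counted from the annotated start to the leftmost base of each match. In the Bnip3 window a CACGTG lay at -99, with GCGTG on the opposite strand at -108 and at -90, so that 4 matches fell close together. In the Pdk1 window GCGTG stood at -131 and -54, and ACGTG at 22 and 31 on the opposite strand. Neither core was found in the windows of Adm and Ndufa4l2. ACGTG was present in 19.3% and GCGTG in 29.7% of all 33469 windows of the table, and 41.6% held at least 1 of them. Among the 6385 windows of genes named on the array the shares were higher, 25.2% and 49.5%, with 61% for at least 1, so matches in 3 of 5 windows were no more frequent than among array genes. The 3 windows with a match also had the higher share of G and C, 71.3% to 73.7% against 57% in Ndufa4l2 and 58% in Adm. For Hif1a, Adm and Pdk1 the gene record of the same assembly began upstream of the start used here, so other starts exist, and a match here is a run of letters and not a measured binding site.

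**Figure D1:**
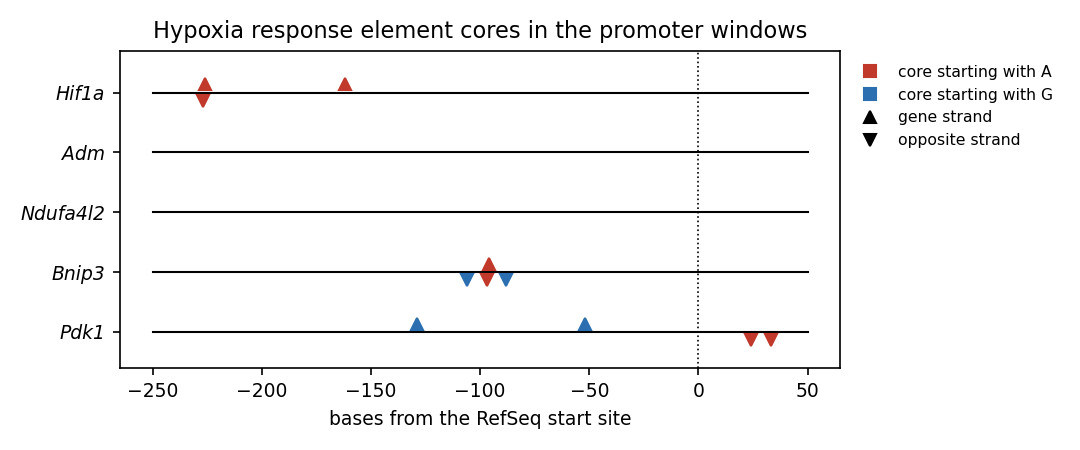
Position of the hypoxia response element cores in the 5 promoter windows, in bases from the RefSeq start site (x axis), one line per gene, red for the core that starts with A and blue for the core that starts with G, upward for the gene strand and downward for the opposite strand. Hif1a, Bnip3 and Pdk1 carry matches, and the lines of Adm and Ndufa4l2 are empty.

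The comparison is between late-passage TSPCs passaged with POG and those passaged with its solvent. Values are log2 signals, and a difference is POG minus DMSO with the standard error (SE) of a limma fit over all probe sets. The term "rose" or "fell" is used where the Benjamini-Hochberg adjusted p over the 10141 probe sets was under 0.05. All 7 genes rose, and for all 7 the lowest POG array lay above the highest DMSO array. Across all probe sets 26.7% were higher at this threshold and 19.6% lower (46.3% in all), and 38.3% had all POG arrays above all DMSO arrays (28.5% all below), so a rise or a separation of the arrays was common. The median difference of the 7 genes was 2.43 against 0.11 over all probe sets, whose middle 50% lay from -0.39 to 0.57. The 7 genes were chosen with earlier results of these data known, so this contrast is a description and not a test.

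**Figure D2:**
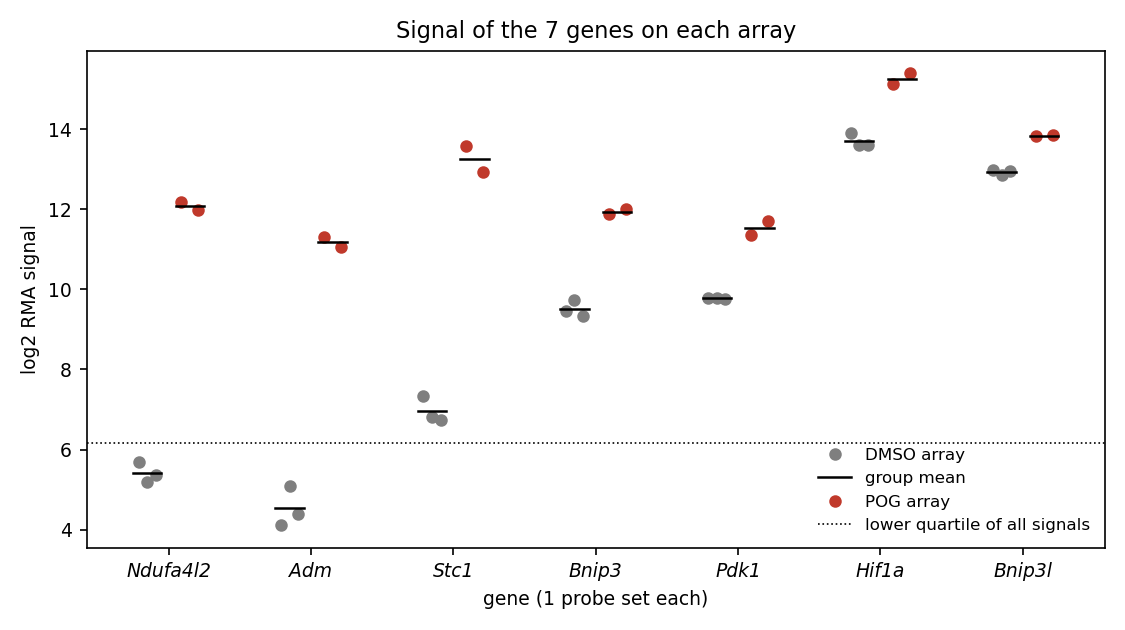
Log2 RMA signal (y axis) of the 7 genes on the 3 DMSO arrays (grey) and the 2 POG arrays (red), with group means as bars and the lower quartile of all signals, 6.17, as a dotted line. POG arrays lie above DMSO arrays for each gene, by the widest gap for Ndufa4l2, Adm and Stc1, and levels are not comparable between genes.

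Hif1a encodes the oxygen-regulated subunit itself. It read 13.91, 13.61 and 13.60 with DMSO and 15.13 and 15.39 with POG. The gap between the groups was wider than the spread inside either, and the DMSO arrays spanned 0.31 (SD 0.18). Hif1a rose by 1.55 ± 0.18 (SE, n = 3 and 2 arrays), a 2.93-fold difference on this scale, with a limma adjusted p of 0.000124.

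Adm and Stc1 encode secreted factors and were among the largest rises of all probe sets. Adm encodes adrenomedullin, a peptide that relaxes vessels and acts through the receptor CALCRL with a RAMP partner. Adm read 4.11, 5.09 and 4.39 with DMSO and 11.31 and 11.05 with POG. It rose by 6.65 ± 0.27 (SE, n = 3 and 2 arrays, limma adjusted p = 1.04e-07), the 6th largest rise of the 10141 probe sets. Its DMSO mean of 4.53 ± 0.50 (SD) was below 6.17, the lower quartile of all signals, and no detection calls were used here, so this level may be background and the difference may be understated.

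Stc1 encodes stanniocalcin-1, a secreted glycoprotein named for its part in calcium handling in fish. Stc1 read 7.33, 6.80 and 6.74 with DMSO and 13.58 and 12.92 with POG. The POG arrays differed by 0.66, the widest spread among the 7 genes in that group, and the groups were far apart. Stc1 rose by 6.29 ± 0.25 (SE, n = 3 and 2 arrays, limma adjusted p = 1.01e-07), the 9th largest rise.

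Ndufa4l2, a mitochondrial protein related to the respiratory chain subunit NDUFA4 and known as a HIF-1 target that lowers oxygen use, read 5.69, 5.20 and 5.37 on the DMSO arrays. On the POG arrays it read 12.19 and 11.97. Ndufa4l2 rose by 6.66 ± 0.20 (SE, n = 3 and 2 arrays, limma adjusted p = 1.79e-08), the 5th largest rise. Its DMSO mean of 5.42 ± 0.25 (SD) was also under the lower quartile, so the same limit applies as for Adm.

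Bnip3 and Bnip3l encode related proteins of the outer mitochondrial membrane that recruit the autophagy machinery to mitochondria. Bnip3 read 9.47, 9.74 and 9.33 with DMSO and 11.88 and 12.00 with POG. It rose by 2.43 ± 0.18 (SE, n = 3 and 2 arrays, limma adjusted p = 5.45e-06). Bnip3l, also called Nix, read 12.97, 12.86 and 12.96 with DMSO and 13.82 and 13.85 with POG. The arrays of each group lay close together (range 0.11 with DMSO and 0.03 with POG), and Bnip3l rose by 0.91 ± 0.16 (SE, n = 3 and 2 arrays, limma adjusted p = 0.00169), the smallest rise of the 7. The rise of Bnip3 exceeded that of Bnip3l by 1.52. An exact permutation test of that excess over the 10 ways to assign the arrays gave a two-sided p of 0.1, the smallest this design allows.

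Pdk1 encodes a kinase that switches off pyruvate dehydrogenase and so limits the conversion of pyruvate to acetyl-CoA in mitochondria. It read 9.79, 9.79 and 9.76 on the DMSO arrays, the tightest DMSO group of the 7 genes (SD 0.017), and 11.35 and 11.71 on the POG arrays. Pdk1 rose by 1.75 ± 0.18 (SE, n = 3 and 2 arrays, limma adjusted p = 4.13e-05).

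In order of the difference, Ndufa4l2, Adm and Stc1 came first, with 95% intervals of the fit from 6.22 to 7.10, 6.05 to 7.25 and 5.74 to 6.85. Bnip3 followed (2.01 to 2.84), then Pdk1 (1.35 to 2.15), Hif1a (1.14 to 1.97) and Bnip3l (0.54 to 1.27). Neighbours in this order were compared by the difference between their signals on each array, in exact two-sided permutation tests chosen in part after the values were seen, whose smallest possible p is 0.1. The rise of Ndufa4l2 exceeded that of Adm by 0.01 (exact p = 1), that of Adm exceeded that of Stc1 by 0.36 (p = 0.7) and that of Pdk1 exceeded that of Hif1a by 0.20 (p = 0.3). In the pairs with Adm the groups overlapped, and for Pdk1 over Hif1a the nearest arrays of the groups were -3.82 and -3.78. For Stc1 over Bnip3 (3.87), Bnip3 over Pdk1 (0.68) and Hif1a over Bnip3l (0.65) the POG arrays lay apart from the DMSO arrays and the exact p was 0.1. Over all 9 such pairs, those with Epas1, Pdk3 and Bnip3 against Bnip3l included, the lowest adjusted p was 0.15. With the methods' t-test all 7 genes passed as well, with adjusted p-values from 0.00681 to 0.0251, beside 10.5% of probe sets called higher by that test.

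**Figure D3:**
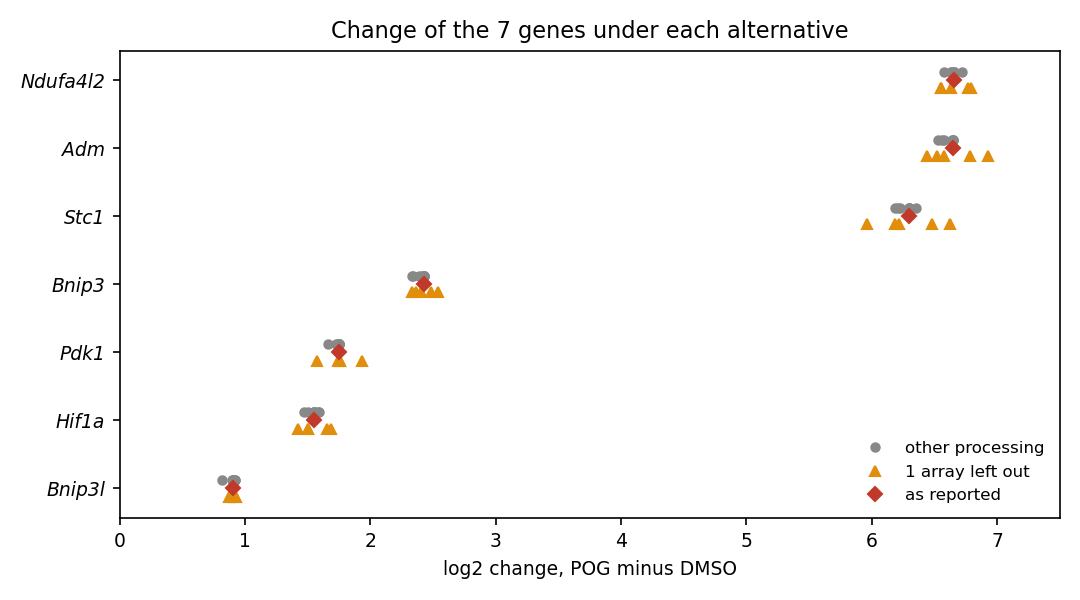
Log2 difference between POG and DMSO arrays (x axis) of the 7 genes as reported (red diamonds), with 1 array left out (orange triangles) and under the other processing alternatives (grey circles). Every point lies above 0, and the widest spread is that of Stc1, from 5.96 to 6.62.

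Most measured partners and regulators of the HIF-1α protein did not pass the threshold. Of 24 symbols, older names included, listed for HIF subunits and oxygen sensing, 12 had a probe set. Outside Hif1a itself 2 of 11 rose and 1 fell, that is 18.2% and 9.1% of them, against 26.7% and 19.6% of all probe sets. With trend and robust moderation 4 of the 11 rose, where 27.8% of all probe sets did. Vhl, the prolyl hydroxylases Egln1, Egln2 and Egln3, and Hif3a had no named probe set and were not analysed here. The median difference of the 11 genes was 0.26.

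Epas1, which encodes HIF-2α, the second oxygen-regulated alpha subunit, read 9.72, 9.35 and 9.30 with DMSO and 6.69 and 6.60 with POG. It fell by 2.81 on the log2 scale (SE 0.19, n = 3 and 2 arrays, limma adjusted p = 2.25e-06), so the 2 alpha subunits on the array differed in opposite directions. The change of Hif1a exceeded that of Epas1 by 4.37 on the log2 scale (exact permutation test over 10 arrangements, two-sided p = 0.1, the smallest possible). Arnt, the common partner of both, did not pass at 0.48 ± 0.23 (limma adjusted p = 0.106), with an interval from -0.02 to 0.99, but passed with trend and robust moderation (adjusted p = 0.0435). Arnt2, its paralogue, rose by 1.83 ± 0.20 (adjusted p = 8.13e-05) from a DMSO mean of 5.97 that may be background.

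Siah1, a ubiquitin ligase that targets prolyl hydroxylases, rose by 1.09 ± 0.20 (limma adjusted p = 0.00174). With the methods' t-test Siah1 did not pass (adjusted p = 0.0574). Its relative Siah2 was at -0.23 (adjusted p = 0.333). Hif1an, the asparagine hydroxylase that blocks HIF activity when oxygen is present, was at -0.36 ± 0.21 (adjusted p = 0.181). The VHL complex subunits Elob and Eloc stood at 0.39 and 0.26, the HIF competitor Cited2 at 0.38 and the chaperones Hsp90aa1 and Hsp90ab1 at 0.15 and 0.14, none of them past the threshold. Elob passed among the brighter probe sets (adjusted p = 0.0486) and with trend and robust moderation (adjusted p = 0.032).

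**Figure D4:**
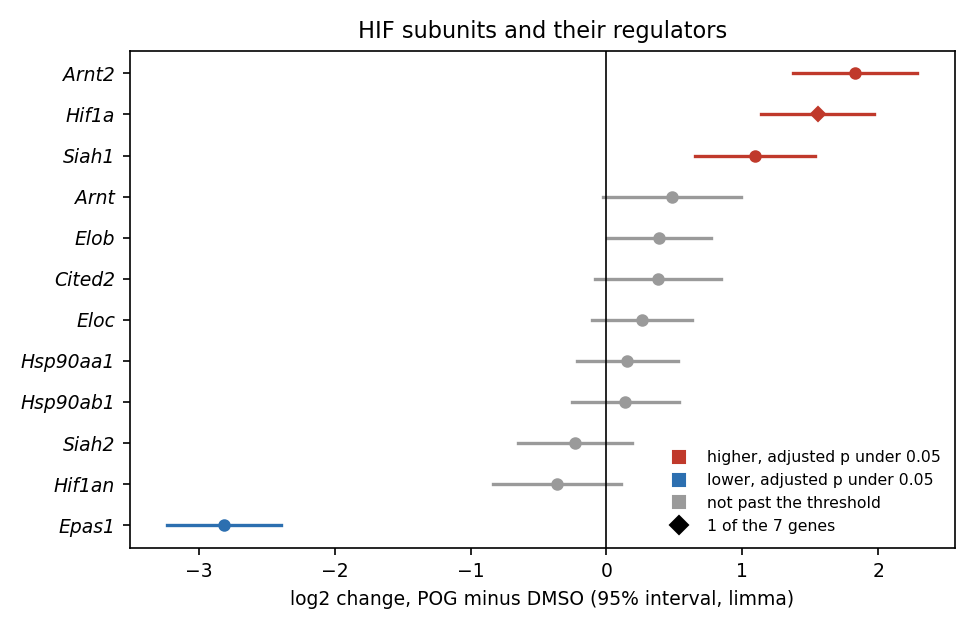
Log2 difference between POG and DMSO arrays (x axis) with its 95% interval for Hif1a (diamond) and the 11 other measured genes of HIF subunits and oxygen sensing (circles), red for higher, blue for lower and grey for not past an adjusted p of 0.05. Hif1a (1.55) and Epas1 (-2.81) lie on opposite sides of 0, and Arnt (0.48) does not pass.

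Other HIF targets of the list used went both ways. Of 57 listed genes outside the 7, 37 were measured, of which 16 rose (43.2%, against 26.7% of all probe sets) and 8 fell (21.6%, against 19.6%), with a median difference of 0.47. The enzymes of glycolysis, which HIF-1 also serves, were not in this list and are counted apart below. The glucose transporters Slc2a1 and Slc2a3, which fell, are counted in both lists, so these shares depend on how the lists were divided. The chemokine Cxcl12 rose by 4.60 ± 0.17 (limma adjusted p = 6.86e-08) and the copper-binding ferroxidase Cp by 2.23 ± 0.22. Wsb1, a ubiquitin ligase subunit, rose by 1.69 ± 0.18 and Mxi1, which opposes MYC, by 1.66 ± 0.20. Vegfa, the main vessel growth factor and one of the best known HIF targets, read 14.76, 14.78 and 14.46 with DMSO and 13.14 and 13.22 with POG. It fell by 1.49 on the log2 scale (SE 0.18, limma adjusted p = 0.000131), against the direction of the 7 genes. The collagen cross-linking enzyme Loxl2 fell by 2.73 (SE 0.17, adjusted p = 1.60e-06). Picked out after its value was seen, Car9, a carbonic anhydrase widely used as a marker of HIF activity, was at 0.11 ± 0.17 (adjusted p = 0.63), with an interval from -0.27 to 0.49.

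Most glycolysis genes were higher, while both measured glucose transporters of the list were lower. Of 19 measured genes for glycolysis and lactate, 13 rose (68.4%, against 26.7%) and 2 fell (10.5%, against 19.6%), with a median of 0.78. The methods' t-test called 8 of the 19, 6 higher and 2 lower. Ldha, which makes lactate, rose by 1.35 ± 0.20, Pgam1 by 1.29 ± 0.18, Pkm by 1.16 ± 0.18, Eno1 by 1.02 ± 0.19 and Gpi by 0.99 ± 0.17 (limma adjusted p from 0.000292 to 0.00186). The 2 genes that fell were both glucose transporters, Slc2a3 by 1.83 (SE 0.22, adjusted p = 0.000146) and Slc2a1, which the naming rule had not taken, by 0.48 (SE 0.16, adjusted p = 0.0378).

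Around Pdk1, the pyruvate dehydrogenase complex did not pass for most of its measured genes. Outside Pdk1, 2 of 10 genes rose and 1 fell (20% and 10%, against 26.7% and 19.6% of all probe sets), with a median of 0.09. Pdk3, a second kinase of the same enzyme, read 10.13, 10.12 and 10.06 with DMSO and 11.73 and 12.14 with POG. Pdk3 rose by 1.83 ± 0.18 (limma adjusted p = 3.70e-05), close to the rise of Pdk1. Pdp1, the phosphatase that reverses the kinases, rose as well, by 1.12 ± 0.18 (adjusted p = 0.000939). Dlat, the acetyltransferase subunit, fell by 0.80 (SE 0.19, adjusted p = 0.00768), without a call by the methods' t-test (adjusted p = 0.0769) or without POG replicate 1 (adjusted p = 0.0812). The other measured subunits and carriers, among them Pdha1 (0.27) and Dld (0.37), did not pass. Pdk2 and Pdk4 had no named probe set.

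Bnip3 and Bnip3l were 2 of the 3 genes that rose among 20 measured mitophagy receptors and adaptors. Outside them 1 of 18 rose and 5 fell (5.6% and 27.8%, against 26.7% and 19.6% of all probe sets), with a median of -0.01. The receptor Fundc1 was the third, at 0.59 ± 0.22 (limma adjusted p = 0.0489), a call lost in 9 of 12 alternatives. The ubiquitin-binding adaptor Sqstm1 fell by 0.88 (SE 0.23, adjusted p = 0.0108), Gabarapl1, of the family that BNIP3 proteins bind, by 1.06 (SE 0.23, adjusted p = 0.00424), Bcl2, which binds BNIP3, by 1.25 (SE 0.33, adjusted p = 0.0122), Rheb by 0.55 and Fundc2 by 0.61. The methods' t-test called none of these 5. The POG mean of Bcl2, 5.065, was below the lower quartile of all signals and may be background. Leaving out POG replicate 1 also ended the calls of Sqstm1, Bcl2, Rheb and Fundc2, and the count of genes changed outside the pair went from 6 to 2 without that array and to 3 without DMSO replicate 3. Bcl2 also lost its call without POG replicate 2 (adjusted p = 0.0635).

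For Ndufa4l2 the related subunit Ndufa4 had no named probe set. Of 10 other measured genes of cytochrome c oxidase and the NDUFA4 family, 1 rose and 2 fell, with a median of 0.25. Those shares, 10% and 20%, stand beside 26.7% and 19.6% of all probe sets. Cox4i2, an oxygen-responsive isoform of subunit IV, rose by 0.86 ± 0.16 (limma adjusted p = 0.0024), but its means of 4.32 and 5.18 were both below the lower quartile and may be background. The protease Lonp1, which removes the common isoform of subunit IV under low oxygen, fell by 0.78 (SE 0.16, adjusted p = 0.00401). Cox4i1, that common isoform, was chosen after its value was seen and stood at -0.03 ± 0.18 (adjusted p = 0.913). The copper chaperone Cox17 fell by 0.86 (SE 0.20, adjusted p = 0.00689), without a call by the methods' t-test (adjusted p = 0.0866) or without POG replicate 2 (adjusted p = 0.0717). Without DMSO replicate 3, 5 genes of this list were called in place of 3, with Cox7b (adjusted p = 0.0184) and Higd1a (adjusted p = 0.024) added.

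Most measured genes around Adm and Stc1 were higher. Of 9 genes of the adrenomedullin and stanniocalcin systems outside the pair, 7 rose and 2 fell (77.8% and 22.2%, against 26.7% and 19.6%), with a median of 1.02. The methods' t-test called 4 of the 9, all higher. Ramp3, which pairs with the adrenomedullin receptor, read 6.41, 5.35 and 5.37 with DMSO and 10.14 and 9.19 with POG. Its groups did not overlap, though both spread widely. Ramp3 rose by 3.96 ± 0.36 (limma adjusted p = 1.76e-05) from a DMSO mean of 5.71 that may be background, and Calcrl, the receptor itself, by 1.47 ± 0.23 (adjusted p = 0.000755, without a call by the methods' t-test at 0.0644). Mme, the peptidase neprilysin, which can cleave adrenomedullin, read 13.03, 12.89 and 12.81 on the DMSO arrays and 15.62 on both POG arrays, and rose by 2.71 ± 0.17 (adjusted p = 1.35e-06).

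Stc2, the relative of Stc1, rose by 1.02 ± 0.17 (limma adjusted p = 0.00111) from a DMSO mean of 5.66 that may be background. Igfbp4, the binding protein cut by PAPP-A, an enzyme that stanniocalcins block, rose by 2.01 ± 0.18 (adjusted p = 2.01e-05). The 2 genes that fell were Ackr3, a scavenging receptor for adrenomedullin and CXCL12, by 0.87 (SE 0.19, adjusted p = 0.00494), and Ramp1, named because it completed the count, by 0.63 from a mean of 4.71. Ackr3 did not pass without POG replicate 1 or with the methods' t-test. Among the 5071 brighter probe sets 2 of these 9 genes were called, since most of them are dim.

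**Figure D5:**
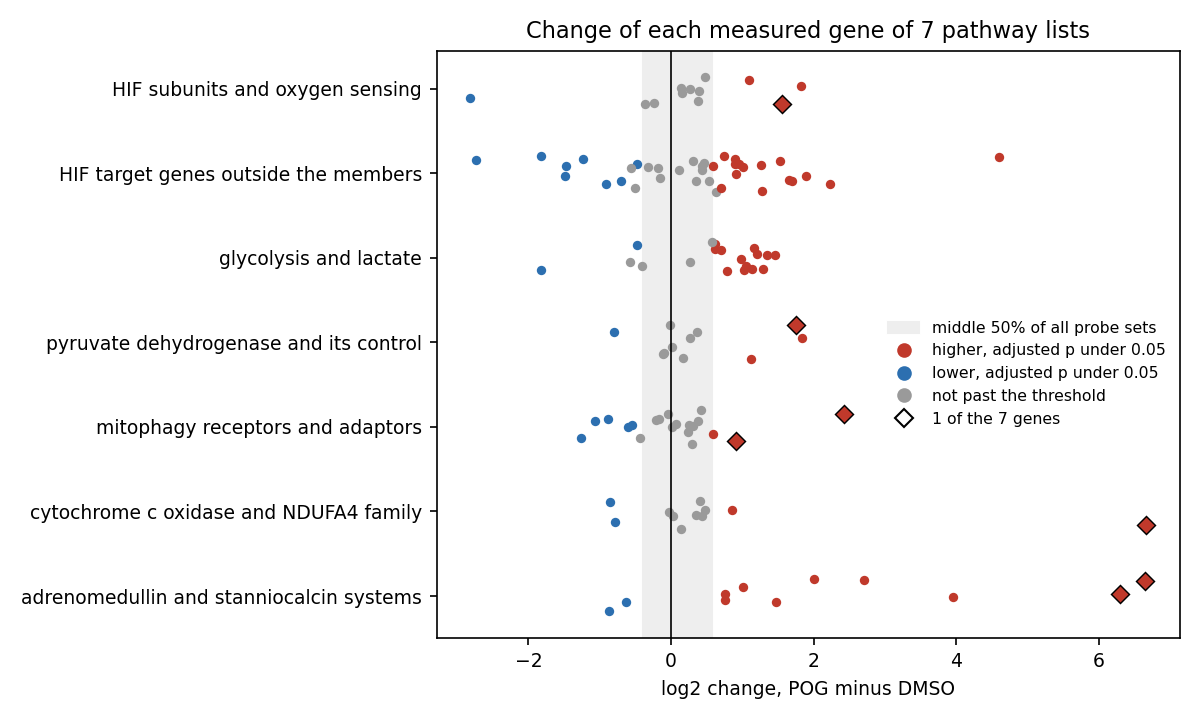
Log2 difference between POG and DMSO arrays (x axis) of each measured gene in 7 pathway lists (rows), red for higher, blue for lower and grey for not past an adjusted p of 0.05, with the 7 genes as outlined diamonds and the middle 50% of all probe sets, -0.39 to 0.57, shaded. Glycolysis and adrenomedullin genes lie mostly to the right, and mitophagy genes outside Bnip3 and Bnip3l lie around 0 (median -0.01).

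Over the 5 arrays, the profile of Hif1a was compared with those of the other named genes by the root mean square difference after centring each gene on its own mean. The nearest were Fbxl7 (0.077), the kinase Fyn (0.086), the cytokine Mif (0.095), the cell cycle inhibitor Cdkn1b (0.102) and the kinetochore protein Spc25 (0.115), all in log2 units and with differences of 1.51 to 1.66. Pdk1 (0.147) was the nearest of the other 6 genes, with 18 genes nearer. Bnip3l followed at 0.34, Bnip3 at 0.468 and Stc1, Ndufa4l2 and Adm at 2.34 to 2.54. On arrays of 2 groups this measure mostly reflects a like difference between the groups. The DMSO means of Mif (5.48) and Cdkn1b (5.27) were below the lower quartile and may be background.

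Array medians lay between 8.36 and 8.52, and pairs of arrays differed with an SD of 0.32 to 0.37 inside a group and 0.99 to 1.04 between groups. Of tendon and mesenchymal markers, Col1a1, Thy1, Eng and Itgb1 were present at log2 signals of 12.18 or more on all arrays. Both lists also held dim genes and genes that changed. The marker counts below stand beside 26.7% of all probe sets that rose and 19.6% that fell. Summed signals were added on the unlogged scale and returned to log2, so the brightest probe sets of a list weigh most. Of 8 measured tendon markers 3 rose, Dcn by 8.24 (the 2nd largest rise of all probe sets), Fmod by 6.57 and Thbs4 by 2.68, and the summed signal of the list was 19.82 to 19.92 with DMSO and 20.30 to 20.41 with POG. Of 5 mesenchymal markers Cd44 fell by 1.26 and Itgb1 by 0.78, and the sum was 18.86 to 18.93 with DMSO and 18.23 to 18.30 with POG. Nt5e, also of that list, had a DMSO mean of 5.84, below the lower quartile, and did not pass (0.85, limma adjusted p = 0.0526). The tendon factor Scx was low (means of 6.08 and 5.77), and Tnmd and Mkx had no named probe set. In bulk RNA of this kind, fewer cells of a type and less RNA per cell cannot be told apart. Markers listed for other cell types moved with the treatment. All 8 smooth muscle and pericyte genes with a probe set fell, by 1.96 (Tagln) to 6.63 (Mcam). Their summed signal went from 19.86 to 19.96 on the DMSO arrays to 17.62 to 17.64 on the POG arrays, in log2 units. Among the 8 was Mcam, which encodes CD146, a marker by which the paper traced TSPCs in injured tendons. Mcam fell by 6.63, from a mean of 12.94 to 6.31, so this list is not apart from the cells studied. All 4 measured leukocyte markers rose (6.56 to 6.71 against 8.34 to 8.56), with no named probe set for Ptprc, the defining one. Their DMSO means of 3.55 to 5.18 were below the lower quartile and may be background, and Fcer1g stayed below it with POG (4.77). Of 3 endothelial markers 1 rose and 1 fell (6.82 to 7.24 against 6.98 to 7.08), with none for Pecam1, Cdh5 and Vwf. Of 7 proliferation genes 6 rose (11.50 to 11.70 against 12.61 to 12.62). No epithelial or erythroid marker had a named probe set. The part of these shifts in the results above was not tested.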

How the data were processed

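Expression was measured in 5 arrays of rat TSPCs. The deposited values are log2 signals per probe set, which the authors made with robust multi-array average (RMA, version not given in the sources used here), default settings and global scaling. They ran from 2.98 to 19.47, and whether steps of this scale match RNA amounts was not checked. The second deposited table gave the same fits (largest difference 0). The rule that left 10141 probe sets was not given. Gene symbols came from the platform annotation by probe set identifier. Groups came from the sample titles.

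All probe sets were fitted together with limma 3.58.1 in R 4.3.3, two-sided, with Benjamini-Hochberg adjustment and a threshold of 0.05. The script was tested on simulated data. Where a gene had several probe sets the brightest stood for it. The 7 genes and the lists were chosen with earlier results of these data known, and the lists are described by counts and medians, with no set test. Named genes were, beside the 7, up to 6 of each list with the smallest p, all of the HIF subunit list and the 5 profiles nearest to Hif1a. Others are marked as picked later. Alternatives were the second table, quantile normalization, median centring, the 5071 probe sets with a mean of at least 8.45, trend and robust moderation, weights per array, a block for the replicate number (replicate block), each array left out in turn, and the methods' t-test. No named gene had more than 1 probe set, so averaging probe sets changed nothing. Promoter windows were taken from RefSeq (GRCr8) by gene identifier.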

Additional observations from a re-analysis of the deposited data

How the results depend on the processing

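All 7 genes stayed higher and past the threshold in each of the 13 alternatives that held them, except that Adm and Ndufa4l2 were absent from the brighter probe sets, where 5 were called. With the replicate block all 7 were called and 4193 probe sets changed against 4694. Same-numbered arrays had deviations from their group means that correlated at 0.0042 and 0.0052, so the numbers gave no sign of pairing, and the block lowered the mitophagy genes changed outside the 7 from 6 to 3 and raised those of the cytochrome c oxidase list from 3 to 5. The cause of these shifts was not tested.

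Among the brighter probe sets, where fewer genes were tested, 2894 probe sets changed, with 1 HIF subunit gene, 14 other HIF targets, 1 pyruvate dehydrogenase gene and 2 adrenomedullin and stanniocalcin genes. Dimmer genes were left out there, so a lower count need not mean lost calls. Epas1, Arnt2 and Siah1 were absent, and the HIF subunit gene called was Elob, which had not passed in the main fit. The methods' t-test, which shares no variance across genes, gave 2078 probe sets, 14 other HIF targets, 8 glycolysis genes, 1 mitophagy gene and 4 adrenomedullin and stanniocalcin genes. Trend and robust moderation gave 5 HIF subunit genes. Leaving out 1 array gave 2900 (without POG replicate 2) to 4347 probe sets, 2 (without POG replicate 1) to 5 mitophagy genes and 2 to 5 cytochrome c oxidase genes (5 without DMSO replicate 3). Where 1 POG array was left, the spread came from the DMSO arrays. Of 38 other named genes past the threshold, 27 stayed so in every alternative that held them and 0 reversed. Pdpr, which did not pass at 0.17, turned to -0.0143 after quantile normalization and -0.0067 without POG replicate 1, and was 0.3533 without POG replicate 2. Signals near background and the small number of arrays limit the precision.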
